A study of Mus musculus with 24 samples.

Results

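The serpins of clade B are a family of intracellular protease inhibitors. GENCODE M21 annotates 26 of its genes as protein-coding in the mouse, not counting Serpinb10, which it lists as a polymorphic pseudogene. Of the 26 genes, 7 are described here: Serpinb9b, Serpinb9, Serpinb6a, Serpinb6b, Serpinb5, Serpinb1a and Serpinb8. They were chosen by name from the 55421 mouse genes of the count table because Serpinb9b is among the genes that rise most in culture, so the levels of the members against day 0 are a description without a test. Type 2 alveolar epithelial cells (AEC2s), the surfactant-producing cells of the lung, were isolated from wild-type mice (Krt8+/+) and from mice lacking keratin 8 in all tissues (Krt8-/-). The sample labels end in 1 of 3 dates, read here as dates of isolation. Bulk RNA was sequenced at isolation (day 0) and after 1, 3 and 7 days of 2D culture. This gave 24 libraries in 8 groups of genotype and day, with 3 isolations in each. Keratin 8 is an intermediate filament protein of simple epithelia, and the strain, age and sex of the mice are not given in the labels.

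A serpin offers its target protease a reactive loop as bait, is cleaved, and then traps the protease in an inactive complex, so that each molecule is used once. Members of clade B lack a classical secretion signal and act mainly in the cytosol and nucleus. They are best known for protecting cells from granzymes and other granule proteases, from lysosomal cathepsins and from their own proteases. Serpinb9 is the mouse inhibitor of granzyme B, Serpinb9b is a close paralog reported to inhibit granzyme M, and Serpinb6b has been reported to inhibit granzyme A. Serpinb6a inhibits cathepsin G, Serpinb1a inhibits neutrophil elastase and related proteases, and Serpinb8 can inhibit furin. Serpinb5, or maspin, is an epithelial member that does not inhibit proteases.

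Of the 7 members, 5 lie in the serpin cluster of chromosome 13 of GRCm38 and 2 on chromosome 1. Serpinb9 (chr13:33003250-33017957, + strand) and Serpinb9b (chr13:33027416-33041884, + strand) are neighbors, with 9458 bases between their annotated ends. Serpinb6b (chr13:32965209-32979067, + strand) ends 24182 bases before Serpinb9. Serpinb6a (chr13:33917918-34002794) and Serpinb1a (chr13:32842092-32851185) lie on the - strand. Serpinb5 (chr1:106861173-106883348) and Serpinb8 (chr1:107590006-107610484) lie on the + strand of chromosome 1. The coding sequences of Serpinb9 and Serpinb9b were identical at 86.4% of aligned bases, and those of Serpinb6a and Serpinb6b at 86.3%. Among the other pairs of members, the highest identity was 69.1%, between Serpinb6b and Serpinb9.

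Because reads of close paralogs can be assigned to the wrong gene, the stretch of 60 aligned coding bases in which Serpinb9 and Serpinb9b differ most is shown, from coding base 595 to 654 in both genes (annotated transcripts, GRCm38). Capitals mark the bases that differ.
Serpinb9 coding stretch: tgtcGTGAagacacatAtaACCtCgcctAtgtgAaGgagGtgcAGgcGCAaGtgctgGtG
Serpinb9b coding stretch: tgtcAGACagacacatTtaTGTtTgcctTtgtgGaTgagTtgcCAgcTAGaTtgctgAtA
Of these 60 bases, 39 were identical. Of the 50-base stretches of the Serpinb9b transcripts, 0.478% also occur in transcripts of another gene, and for the other members the share was at most 2.92%, in Serpinb6b. No 100-base stretch of any of the 7 members occurs in another gene's transcripts.

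The bases just before the transcription start of the same paralogs are shown because the genes lie side by side and their levels over the culture were so different. Both sequences are the 120 bases upstream of the RefSeq start on the + strand of GRCm38, at chr13:33004421-33004540 for Serpinb9 and chr13:33027294-33027413 for Serpinb9b, with capitals at bases that are not identical in the alignment.
Serpinb9 upstream: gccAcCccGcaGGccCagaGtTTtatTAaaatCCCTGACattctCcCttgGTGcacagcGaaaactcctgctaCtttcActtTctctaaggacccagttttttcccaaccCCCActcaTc
Serpinb9b upstream: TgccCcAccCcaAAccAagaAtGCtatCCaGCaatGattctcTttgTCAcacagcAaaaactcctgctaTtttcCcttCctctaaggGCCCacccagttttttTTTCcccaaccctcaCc
Over 109 aligned bases, 88 were identical, or 80.7%. The GENCODE annotation of Serpinb9 begins earlier than its RefSeq start, at base 33003250, so the Serpinb9 stretch lies inside the annotated gene. The Serpinb9b stretch ends just before the annotated start of that gene, at base 33027416. A RefSeq promoter of 300 bases was found for 6 of the 7 members, Serpinb6a with 2. These and 32851 mouse promoters of the same length were searched on both strands. The AP-1 motif, searched as TGANTCA with any base at N, was found in Serpinb5 (1 match, TGAATCA) and Serpinb8 (2 matches, each TGAGTCA). Of all promoters, 7.81% hold a match to this loose form. The TEAD motif CATTCC was found in 1 promoter of Serpinb6a and is held by 14.7% of all promoters. The TATA box TATAAA (13.6% of all promoters) and the E-box CACGTG (7.15%) were not found in a member's promoter. A match of these letters is a description and does not show a binding site.

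Total counts per library ranged from 10184439 to 19483386. Levels are given as CPM, the counts of a gene scaled to a common library size with edgeR's TMM factors. Krt8 had between 485 and 5090 CPM in the Krt8+/+ libraries and between 21.2 and 47.4 CPM in the Krt8-/- libraries. The 6 AEC2 markers summed to between 222000 and 298000 CPM on day 0, and to between 116 and 169 CPM on day 7. The 6 markers of transitional AECs, which include Krt8, went from 838 to 1270 CPM on day 0 to between 5120 and 16400 CPM on day 7. The 6 fibroblast markers summed to between 293 and 979 CPM on day 0 and between 91.6 and 2980 CPM in culture. The 6 AEC1 markers summed to between 2390 and 3540 CPM on day 0 and between 604 and 2370 CPM in culture. On day 0 this sum was mostly Ager and Aqp5, which went from 1910 to 984 CPM and from 699 to 102 CPM by day 7 in Krt8+/+ cells. The other 4 markers (Hopx, Pdpn, Rtkn2 and Cav1) had higher group means on day 7 than on day 0 in both genotypes. The 6 endothelial markers summed to at most 39.8 CPM in any library. In such bulk libraries fewer cells of a type and less RNA per cell cannot be told apart, and the part of other cell types in the members' levels was not tested unless a value is given beside the result. In isolation 1 the genotypes differed in sex-linked genes, with Xist at 62.4 to 79.5 CPM and Y-linked genes at no more than 0.441 CPM in Krt8+/+ libraries, against 5.92 to 12 CPM and 173 to 191 CPM in Krt8-/- libraries. The genotypes were alike in isolations 2 (Y-linked genes at no more than 0.241 CPM) and 3 (at least 174 CPM). All 7 members were among the 18046 genes that passed the filter on low counts.

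Serpinb9b went from almost no reads in fresh cells to 298 to 618 CPM on day 7. On day 0, its counts were 0, 1 and 0 in the Krt8+/+ libraries of isolations 1, 2 and 3. They were followed by 12.3, 12.5 and 16.2 CPM on day 1, by 90.3, 203 and 262 CPM on day 3, and by 518, 548 and 425 CPM on day 7. No library of one day overlapped with those of another. With 1 count on day 0 and 20629 on day 7, the ratio was 16800, and its exact 95% interval of 3010 to 662000 covers counting error only. The ratio was 468 (83.7 to 18500) on day 1 and 6430 (1150 to 254000) on day 3.

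In the Krt8-/- libraries, Serpinb9b had 2, 0 and 1 counts on day 0. It had 5.83, 17.4 and 17.3 CPM on day 1, 235, 150 and 294 CPM on day 3, and 504, 618 and 298 CPM on day 7. These levels lay on both sides of the Krt8+/+ values, and the days did not overlap, although 298 CPM on day 7 was close to the 294 CPM of the same isolation on day 3. With 3 counts on day 0, the ratio was 173 (58.8 to 840) on day 1. It was 2720 (931 to 13200) on day 3 and reached 5690 (1950 to 27600) on day 7. By the fitted log2 change from day 0 to day 7, Serpinb9b ranked 3 of 18046 genes in Krt8+/+ cells, with a log2 value of 13.65 (SE 0.78) between Grem1 (14.14) and Cck (13.33). In Krt8-/- cells it ranked 12, with a log2 value of 12.35 (SE 0.71). The next member in the Krt8+/+ ranking was Serpinb5, at rank 63. As a description of all 7 members, the log2 change against day 0 was above 0 for 5, 6 and 4 members on days 1, 3 and 7 in both genotypes. The median on day 7 was 1.31 in Krt8+/+ and 1.46 in Krt8-/- cells, where the median of all genes was 0.

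**Figure D1:**
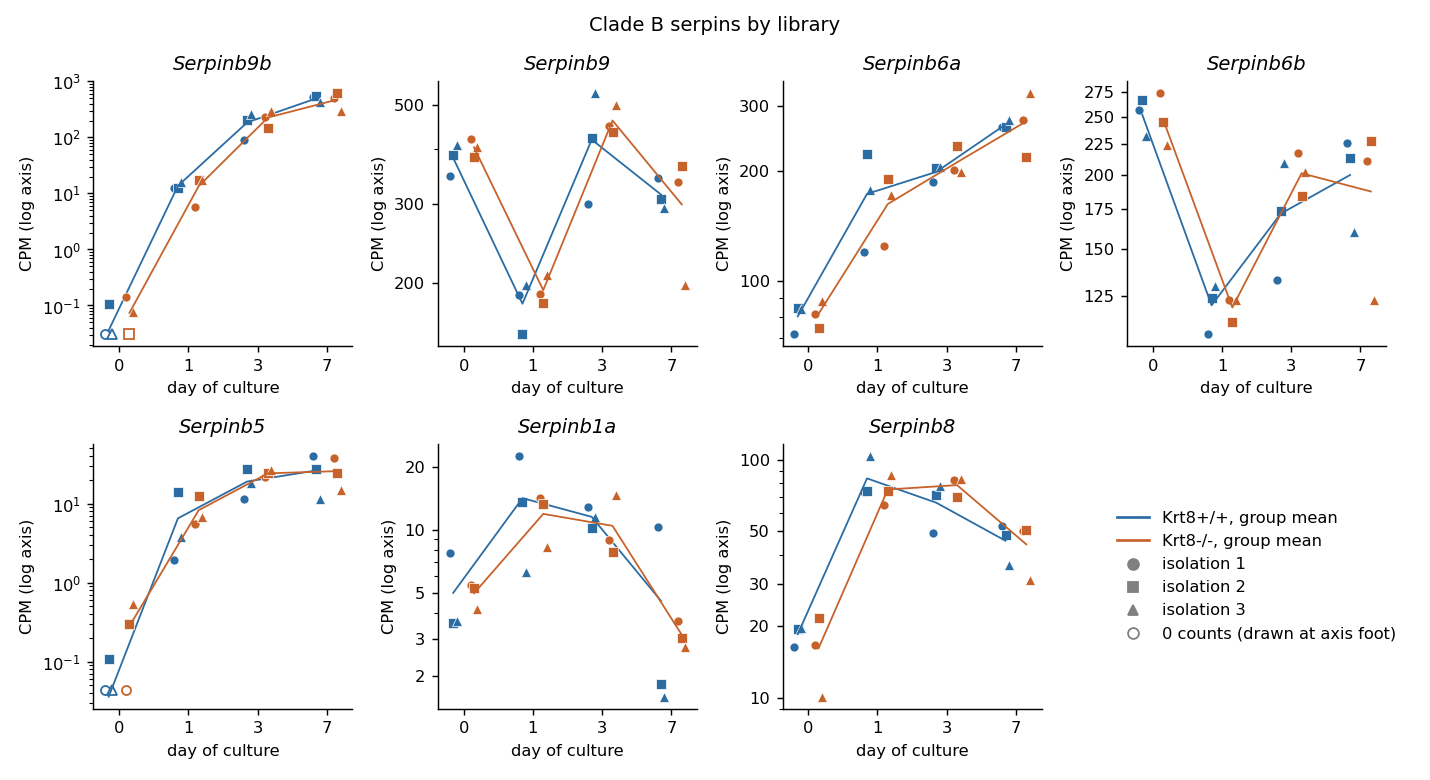
Level of each of the 7 serpins by day of culture, in CPM on log axes that differ between panels; points are single libraries, shapes are isolations, lines join group means of 3 libraries, and open symbols are libraries with 0 counts. Serpinb9b climbs from at most 2 counts per library to 298 to 618 CPM on day 7, while Serpinb9 and Serpinb6b are lowest on day 1.

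Serpinb9, the granzyme B inhibitor next to Serpinb9b, was already abundant in fresh AEC2s and did not follow its paralog. In Krt8+/+ libraries it had 348, 387 and 408 CPM on day 0 and 188, 154 and 198 CPM on day 1. It then had 301, 423 and 532 CPM on day 3 and 344, 308 and 295 CPM on day 7. The day 1 libraries lay below all others of the genotype. In Krt8-/- libraries the values were 421, 383 and 403 CPM on day 0, 189, 181 and 209 CPM on day 1, 450, 435 and 501 CPM on day 3, and 336, 366 and 198 CPM on day 7. There, the day 7 library of isolation 3 fell within the range of day 1. As a description, the log2 change from day 0 to day 1 was -1.08 (SE 0.19) in Krt8+/+ and -1.06 (SE 0.19) in Krt8-/- cells, lower in 3 of 3 isolations each.

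The return of Serpinb9 after day 1 used no day 0 library and was tested with edgeR's quasi-likelihood test over all 18046 genes. From day 1 to day 3 it rose 2.33-fold in Krt8+/+ cells (log2 1.22, SE 0.19, adjusted p = 1.28e-04) and 2.39-fold in Krt8-/- cells (log2 1.26, SE 0.19, adjusted p = 1.07e-04), in 3 of 3 isolations of each genotype. From day 3 to day 7 the log2 change was -0.41 (SE 0.19, adjusted p = 0.248) in Krt8+/+ cells. In Krt8-/- cells Serpinb9 fell by 0.62 on the log2 scale (SE 0.19, adjusted p = 0.0407). This last call was lost without any 1 of the isolations, with adjusted p of 0.122, 0.102 and 0.38 without isolations 1, 2 and 3, and in a fit of only the libraries compared (adjusted p = 0.0898). Markers of cytotoxic lymphocytes, which also express Serpinb9, summed to at most 1.98 CPM in any library over 6 genes, with Prf1 at 0 counts in all.

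Serpinb6b, a neighbor of Serpinb9 on the chromosome, had a like course. Its levels in Krt8+/+ libraries were 257, 267 and 232 CPM on day 0, 108, 124 and 130 CPM on day 1, 133, 174 and 209 CPM on day 3, and 226, 213 and 160 CPM on day 7. In Krt8-/- libraries they were 274, 245 and 224 CPM, then 123, 113 and 123 CPM, then 217, 184 and 202 CPM, and 211, 228 and 123 CPM. Day 0 and day 1 did not overlap in either genotype. From day 1 to day 3, Serpinb6b rose 1.68-fold in Krt8-/- cells (log2 0.75, SE 0.19, adjusted p = 0.00727), a call lost without isolation 1 or 2 (adjusted p = 0.0786 and 0.0874). In Krt8+/+ cells the log2 change was 0.51 (SE 0.19, adjusted p = 0.0512), which passed the threshold with the isolation as a block (0.52, adjusted p = 0.0497) and with no filter on low counts (0.55, adjusted p = 0.0415). Its log2 change from day 3 to day 7 was 0.21 (SE 0.19) and -0.10 (SE 0.19), which was not called. Across the 24 libraries, log2 CPM of Serpinb9 and Serpinb6b had a Pearson r of 0.84, over points that share days and isolations.

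Serpinb6a, the cathepsin G inhibitor, had its highest group mean on day 7. In Krt8+/+ libraries it had 71.7, 84.7 and 83.9 CPM on day 0, 120, 222 and 177 CPM on day 1, 187, 204 and 205 CPM on day 3, and 264, 264 and 275 CPM on day 7. In Krt8-/- libraries the values were 81.5, 74.4 and 88.3 CPM, 125, 190 and 172 CPM, 201, 234 and 198 CPM, and 275, 218 and 326 CPM. All culture libraries lay above all day 0 libraries. The log2 change from day 0 to day 7 was 1.74 (SE 0.19) and 1.75 (SE 0.19) in the genotypes. The steps between culture days had adjusted p of 0.44 and 0.193 in Krt8+/+ and 0.144 and 0.229 in Krt8-/- cells, by edgeR's quasi-likelihood test. No single step was called, and the change from day 1 to day 7 as a whole was not tested. Day 3 to day 7 in Krt8+/+ cells passed in a fit of only the libraries compared (0.40, adjusted p = 0.0388).

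Serpinb5, or maspin, was nearly silent in fresh cells, like Serpinb9b, but stayed at a much lower level. The Krt8+/+ counts on day 0 were 0, 1 and 0, and the levels were 1.91, 13.9 and 3.73 CPM on day 1, 11.6, 27.5 and 18 CPM on day 3, and 40.3, 27.2 and 11.4 CPM on day 7. The Krt8-/- counts on day 0 were 0, 3 and 7, and the levels were 5.47, 12.6 and 6.69 CPM, 21.7, 24.3 and 26.5 CPM, and 38.3, 24.1 and 14.9 CPM. Isolation 2 was highest on day 1 and isolation 1 on day 7 in both genotypes. With 1 count on day 0, the Krt8+/+ ratio was 208 (37 to 8260) on day 1. It reached 887 (159 to 35100) on day 7, with exact counting intervals. From day 1 to day 3 the log2 change was 1.56 (SE 0.60, adjusted p = 0.0592) in Krt8+/+ and 1.54 (SE 0.59, adjusted p = 0.064) in Krt8-/- cells. With the isolation as a block these became 1.69 (adjusted p = 0.0238) and 1.65 (adjusted p = 0.0274), both past the threshold. Markers of airway basal cells, in which Serpinb5 is also expressed, summed over 6 genes to between 0.664 and 12.5 CPM on day 0 and between 1.33 and 22 CPM in culture. In Krt8+/+ libraries the sum was 0.664 to 3.47 CPM on day 0, 7.19 to 17.4 CPM on day 1 and 3.54 to 5.44 CPM on day 3. In Krt8-/- libraries it was 8.65 to 12.5, 7.39 to 17.8 and 5.21 to 22 CPM on the same days. Of the 6 markers, Krt14 was at 0.381 CPM on day 0 and 4.7 CPM on day 7 in Krt8+/+ cells, and at 0.297 and 5.41 CPM in Krt8-/- cells. Krt5 had group means of 0.144, 3.12, 0.738 and 0.0957 CPM on days 0, 1, 3 and 7 in Krt8+/+ cells. In Krt8-/- cells it had 0.725, 3.4, 4.41 and 0.166 CPM. Ngfr had group means of at most 1.05 CPM on any day. Krt15 was at 1 and 0 CPM in Krt8+/+ and at 8.9 and 0.208 CPM in Krt8-/- cells on days 0 and 7. Trp63, which defines basal cells, was at 0.815 and 0 CPM in Krt8+/+ and at 0.259 and 0.49 CPM in Krt8-/- cells on the same days. The part of basal cells in the Serpinb5 level was not tested.

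Serpinb8, an inhibitor of furin, was highest early in culture. It had 16.3, 19.5 and 19.7 CPM on day 0, 72.9, 73.8 and 104 CPM on day 1, 49.4, 71.1 and 77.6 CPM on day 3, and 52.7, 48.1 and 36.3 CPM on day 7 in Krt8+/+ libraries. In Krt8-/- libraries it had 16.7, 21.6 and 10.1 CPM, 64.3, 74.3 and 86.6 CPM, 82.4, 69.7 and 82.8 CPM, and 50.3, 50.8 and 31.3 CPM. Every culture library was above every day 0 library. From day 3 to day 7 it fell by 0.83 on the log2 scale in Krt8-/- cells (SE 0.24, adjusted p = 0.0294), and the log2 change in Krt8+/+ cells was -0.53 (SE 0.24, adjusted p = 0.221). The call was lost without isolation 1, 2 or 3 (adjusted p = 0.147, 0.102 and 0.117).

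Serpinb1a, an inhibitor of neutrophil elastase, was at a low level on every day. Its Krt8+/+ levels were 7.76, 3.57 and 3.65 CPM on day 0, 22.6, 13.6 and 6.31 CPM on day 1, 12.9, 10.2 and 11.5 CPM on day 3, and 10.3, 1.82 and 1.59 CPM on day 7. Its Krt8-/- levels were 5.47, 5.26 and 4.17 CPM, 14.2, 13.3 and 8.25 CPM, 8.91, 7.83 and 14.6 CPM, and 3.66, 3.04 and 2.74 CPM. On day 7, isolation 1 stood apart in the Krt8+/+ group. From day 3 to day 7, Serpinb1a fell by 1.73 on the log2 scale in Krt8-/- cells (SE 0.55, adjusted p = 0.0488), which did not pass without isolation 2 or 3 (adjusted p = 0.188 and 0.271). In Krt8+/+ cells the log2 change was -1.32 (SE 0.54, adjusted p = 0.169). It passed with the isolation as a block (-1.57, adjusted p = 0.0402) and without isolation 1 (-2.66, adjusted p = 0.00785).

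Macrophages can express Serpinb1a, and their markers differed between isolations. The 6 macrophage markers summed to between 34700 and 46400 CPM on day 0 and between 24.7 and 19700 CPM in culture, including Lyz2, which AEC2s express as well. The other 5 markers (Ptprc, Adgre1, Csf1r, Cd68 and Marco, a sum chosen after the values were seen) had 39.7, 27 and 14.3 CPM in Krt8+/+ libraries on day 0, 154, 80.4 and 22.1 CPM on day 1, 105, 33.8 and 15.9 CPM on day 3, and 110, 34.6 and 9.15 CPM on day 7. Isolation 1 was highest on each day and isolation 3 lowest. In Krt8-/- libraries the same sum was 31.1, 19.8 and 7.42 CPM, 90, 64.5 and 16.7 CPM, 64.2, 33.3 and 15.1 CPM, and 53.5, 19.5 and 7.21 CPM. On days 0, 1 and 7 the library with the highest sum was also the one with the most Serpinb1a in both genotypes, and on day 3 this held in Krt8+/+ libraries. In Krt8-/- libraries on day 3 it did not hold, since isolation 3 had the lowest sum (15.1 CPM) and the most Serpinb1a (14.6 CPM), against 64.2 and 8.91 CPM in isolation 1. The part of macrophages in the Serpinb1a level was not tested. Neutrophil markers summed to at most 3.94 CPM in any library over 6 genes.

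**Figure D2:**
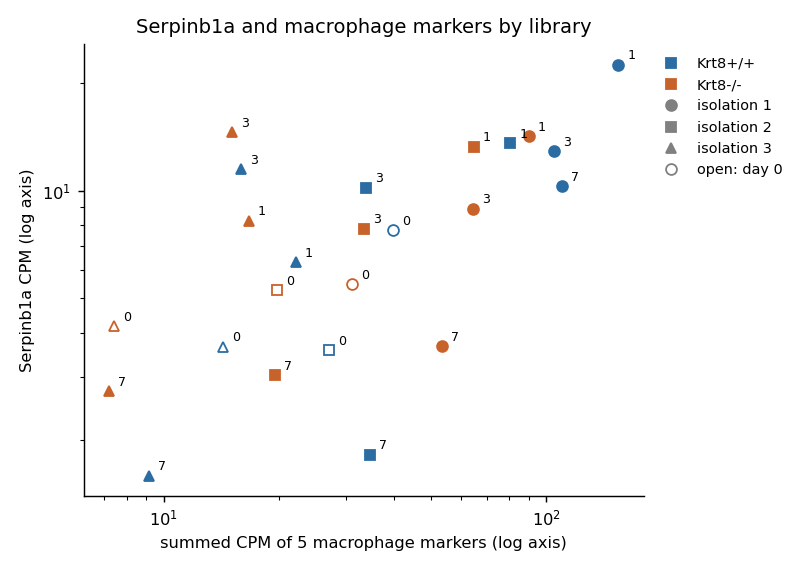
Serpinb1a (CPM, log axis) against the summed CPM of 5 macrophage markers (log axis) in the 24 libraries; color is genotype, shape is isolation, the number beside a point is the day, and open symbols are day 0. The Krt8+/+ day 1 library of isolation 1 is highest on both axes, at 154 and 22.6 CPM.

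Over the steps within culture, tested on the 6 members other than Serpinb9b, few calls were made. From day 1 to day 3, 1 of 6 members rose in Krt8+/+ cells (Serpinb9) and none fell, where 14.4% of all genes rose and 11.9% fell. With the isolation as a block, 3 of 6 rose. In Krt8-/- cells 2 of 6 rose (Serpinb9 and Serpinb6b) beside 13.4% of all genes rising and 10.2% falling. From day 3 to day 7, no member was called in Krt8+/+ cells, where edgeR called 3.11% of genes higher and 3.47% lower, and 4 of the 6 had an unadjusted p under 0.05, as had 3468 of all 18046 genes. With DESeq2 the count was also 0, and with the isolation as a block it was 1. In Krt8-/- cells 3 of 6 fell (Serpinb9, Serpinb1a and Serpinb8), beside 4.4% of all genes rising and 6.15% falling, but without isolations 1, 2 and 3 in turn 1, 0 and 0 were called. That calls were made in 1 genotype and not in the other was not tested as a difference for the single steps.

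**Figure D3:**
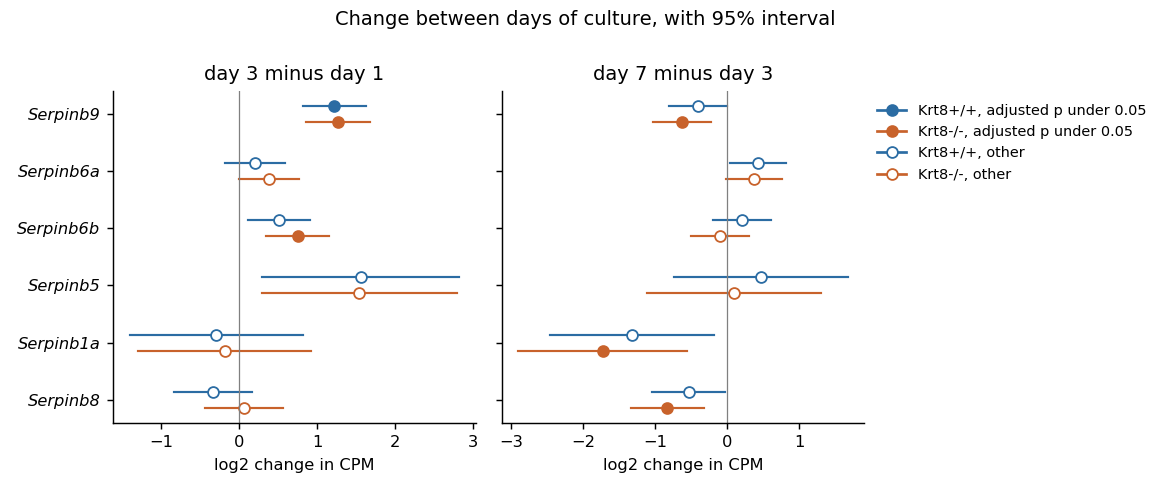
Log2 change in CPM between days of culture for the 6 members other than Serpinb9b, with 95% intervals from the edgeR fit; blue is Krt8+/+, orange is Krt8-/-, and filled points have an adjusted p under 0.05. Serpinb9 is filled in both genotypes from day 1 to day 3, at 1.22 and 1.26, and the filled points from day 3 to day 7 are all Krt8-/- and below 0.

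No difference between the genotypes was detected for any member. The question of this comparison is whether expression in fresh or cultured AECs depends on Krt8. The genotype difference of the 7 members was called in 0 of 7 on day 0, where 0.0277% of all genes were called, and in 0 of 7 on days 1, 3 and 7, where 0.0166% were called on each day. Over days 1 to 7, weighted by the time they stand for, 0 of 7 were called beside 0.0277% of all genes, and in the test of genotype by day 0 of 7 beside 0.00554%. All adjusted p were 1 (edgeR), no member had an unadjusted p under 0.05 with edgeR, and DESeq2 called 0, with 1 unadjusted p under 0.05, on day 0.

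Over days 1 to 7, the log2 difference of Krt8-/- against Krt8+/+ cells was 0.12 for Serpinb9b, with a 95% interval of -0.36 to 0.60. It was 0.06 for Serpinb9 (-0.19 to 0.32), 0.04 for Serpinb6a (-0.20 to 0.28) and 0.08 for Serpinb6b (-0.17 to 0.33). The difference was 0.08 for Serpinb8 (-0.23 to 0.40), 0.22 for Serpinb5 (-0.53 to 0.98) and -0.29 for Serpinb1a (-1 to 0.41). Serpinb5 and Serpinb1a had the widest intervals. Without isolation 1, in which the genotypes differed in sex-linked genes, 5 of the 7 differences changed sign, Serpinb9b to -0.02 and Serpinb1a to 0.30, and none was called.

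**Figure D4:**
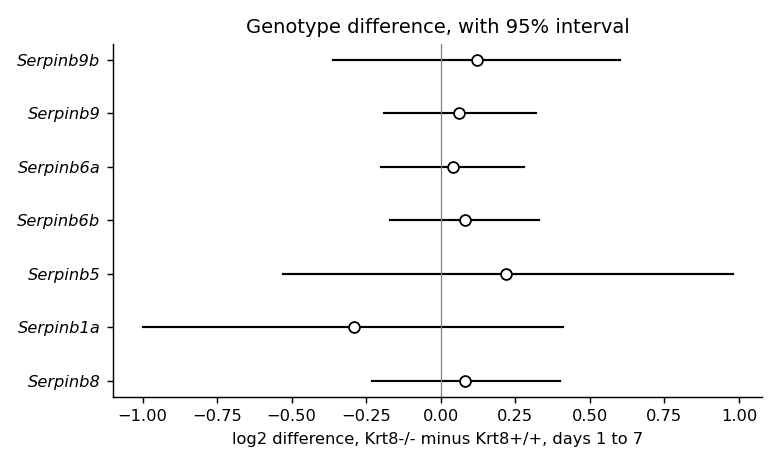
Log2 difference of the 7 serpins in Krt8-/- against Krt8+/+ cells over days 1 to 7, with 95% intervals from the edgeR fit; the vertical line is no difference. All 7 intervals cross 0, and those of Serpinb5 (-0.53 to 0.98) and Serpinb1a (-1 to 0.41) are widest.

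The level of the whole clade and the shares of its genes both differed between days. In Krt8+/+ cells all 26 genes together had 738 ± 31.8 CPM (SD, n = 3) at isolation and 703 ± 56.2 CPM on day 1. They had 1350 ± 246 CPM on day 3, and 1530 ± 191 CPM on day 7. In Krt8-/- cells the totals were 755 ± 40.3, 677 ± 17.5, 1490 ± 57.9 and 1410 ± 261 CPM for the same days. The totals include Serpinb9b, the gene chosen for its rise, and are only a description. Its group means on days 0 and 7 were 0.0361 and 497 CPM in Krt8+/+ cells, and 0.0737 and 473 CPM in Krt8-/- cells. Totals and shares are not corrected for gene length. In Krt8+/+ cells Serpinb9 held 51.5% ± 2.56 (SD, n = 3) of the clade's counts on day 0 and 20.7% ± 1.2 on day 7. Serpinb6b went from 34.1% ± 2.85 to 13% ± 0.927, and Serpinb9b from 0.00473% ± 0.00819 to 32.5% ± 2.7. Serpinb9b held 32.8% ± 5.89 on day 7 in Krt8-/- cells.

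**Figure D5:**
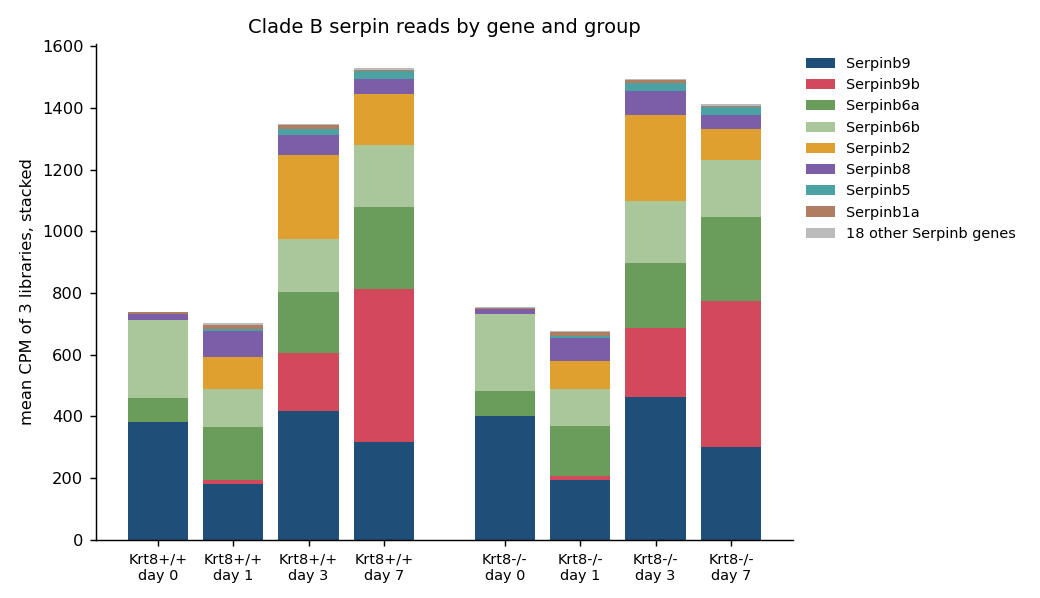
Mean CPM of 3 libraries per group, stacked by gene, for the 26 clade B serpins; the bars start at 0. The bars are higher on days 3 and 7 than on days 0 and 1, and Serpinb9b (red) cannot be seen on day 0 and is the tallest segment on day 7 in both genotypes.

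Levels of different genes can be compared only per length. In Krt8+/+ cells on day 7, Serpinb9b had the highest level, at 148 ± 19.2 CPM per kilobase of exon (SD, n = 3), followed by Serpinb9 at 90.4 ± 7.30 and Serpinb6b at 88.2 ± 15.5, which did not differ beyond their spread. Serpinb6a had 49.5 ± 1.13 CPM per kilobase by the union of its exons, but 122 by its longest transcript, which puts it above Serpinb9. Serpinb5 (9.56 ± 5.26) and Serpinb8 (9.53 ± 1.77) were alike within their spread, and Serpinb1a was lowest at 1.99 ± 2.17. On day 0 the order was Serpinb6b (111 ± 7.83) and Serpinb9 (109 ± 8.67), which overlapped, then Serpinb6a (14.8 ± 1.35), Serpinb8 (3.86 ± 0.393) and Serpinb1a (2.17 ± 1.04).

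The genes whose log2 CPM was most like that of Serpinb9b over the 24 libraries were Igf2bp1 (Pearson r = 0.992), an RNA-binding protein, Tgfb2 (0.988), a TGF-β ligand, Tpbg (0.987), 2310007B03Rik (0.987) and Fez2 (0.986). Libraries of a group share their day and those of an isolation their date, so these values carry no p. Tgfb2 had a group mean of 2.15 CPM on day 0 and 145 CPM on day 7 in Krt8+/+ cells. Among the members, Serpinb5 and Serpinb6a had r of 0.95 with Serpinb9b, at ranks 223 and 246 of 18045 genes. The neighbor Serpinb9 had an r of -0.01 and Serpinb6b of -0.28.

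Of the 19 other clade B serpins, 5 passed the filter on low counts, among them Serpinb1b, Serpinb1c, Serpinb2 and Serpinb9e, which passed only through culture libraries and are therefore described against day 0 without a test. The one with the highest counts was Serpinb2, the intracellular and secreted inhibitor of urokinase known as PAI-2. Its group mean in Krt8+/+ cells was 0.28 ± 0.334 CPM on day 0, from 9 counts, and 106 ± 26.8 CPM on day 1 (SD, n = 3). It was 273 ± 27.6 CPM on day 3 and 168 ± 75.3 CPM on day 7, with a log2 change to day 7 of 9.25 (SE 0.64). In Krt8-/- cells it had 0 counts on day 0 and was at least 1210-fold higher on day 7, on a floor of 3 counts over the group. Unlike Serpinb9b, it had its highest mean on day 3: it rose from day 1 (1.37, adjusted p = 0.0126 in Krt8+/+, and 1.65, adjusted p = 0.00434 in Krt8-/-) and from day 3 to day 7 fell by 1.49 on the log2 scale in Krt8-/- cells (adjusted p = 0.0157), while the log2 change in Krt8+/+ cells was -0.70 (adjusted p = 0.33). Of the 100-base stretches of its transcripts, 7.52% also occur in transcripts of Serpinb10, so that part of its reads is uncertain.

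Serpinb1b, Serpinb1c and Serpinb9e, paralogs of Serpinb1a and Serpinb9, stayed at low levels. On day 0 Serpinb1b had 2 counts and the other two had 0 in Krt8+/+ cells. Serpinb1b reached 2.09 ± 0.229 CPM and Serpinb1c 2.64 ± 1.10 CPM on day 7 in Krt8+/+ cells, and Serpinb9e, named after its values were seen, 0.958 CPM. Serpinb6c had 0.89 CPM and was not called (adjusted p = 0.877).

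Genes for granule proteases, which include targets of several members, were at low levels. Their sum was highest on day 1, mostly through Tpsab1 and Gzmm. The 19 genes for granzymes, neutrophil and mast cell proteases summed to at most 1.51 CPM on day 0. On day 1 they summed to between 15.1 and 47.4 CPM in Krt8+/+ libraries and between 20.5 and 35.5 CPM in Krt8-/- libraries. By day 7 the sum was at most 17.7 CPM. The 3 genes that passed the filter (Gzmm, Tpsab1 and Mcpt8) did so through culture libraries, so their levels are described without a test. Over all 24 libraries, Gzmb had 6 counts, Gzma 10, Elane 1 and Ctsg 0, genes named after their values were seen. Gzmm, the granzyme that Serpinb9b has been reported to inhibit, had group means of 0.846 CPM on day 0 and 8.17 CPM on day 1 in Krt8+/+ cells, and of 0.508 CPM on day 7. Tpsab1, a tryptase that is not among the targets named above, was at 18.8 CPM on day 1 in Krt8+/+ cells, after 0 on day 0. Mcpt8 had 0 CPM on day 0 and 5.53 CPM on day 7 in Krt8+/+ cells, and 0.0337 and 3.07 CPM in Krt8-/- cells. Gzme reached 1.10 CPM on day 7. The 5 mast cell markers summed to at most 2.24 CPM in any library, with Mcpt4 at 0 counts in all.

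The cysteine cathepsins, proteases of the lysosome, moved in both directions. Of 10 tested, 4 were higher and 4 lower on day 7 in Krt8+/+ cells, where 28.6% of all genes were higher and 30.2% lower. The Krt8-/- counts were 3 higher and 4 lower, beside 28.6% and 29.9% of all genes. Among those counted as higher, Ctsw (named after its values were seen) had only 0.257 and 0.212 CPM on day 0 in Krt8+/+ and Krt8-/- cells. It passed the filter through culture libraries, so its call supports nothing. Ctsl went from 118 to 647 CPM in Krt8+/+ cells (log2 2.46, SE 0.13, edgeR adjusted p = 1.46e-11). Ctsc, the activator of granule proteases, went from 3870 to 93.6 CPM (log2 -5.37, SE 0.42, adjusted p = 1.56e-09), and Ctsh, which processes surfactant protein, from 1360 to 267 CPM (log2 -2.35, SE 0.18, adjusted p = 1.49e-09). Ctsb was at 787 and 841 CPM (adjusted p = 0.714). The list's median log2 change was 0.90 in Krt8+/+ and 0.65 in Krt8-/- cells. Ctsw enters these medians with log2 values of 6.93 and 7.4, so they are only a description.

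Of 9 proprotein convertases and membrane serine proteases, 1 was higher and 5 lower in Krt8+/+ cells and 2 and 4 in Krt8-/- cells, with medians of -0.49 and -0.96, where 28.6% of all genes were higher in each genotype and 30.2% and 29.9% lower. Furin, the target of Serpinb8, was at 188 CPM on day 0 and 149 CPM on day 7 in Krt8+/+ cells (log2 -0.34, SE 0.18, adjusted p = 0.123). Prss8, an activator of the epithelial sodium channel, went from 199 to 12.3 CPM (adjusted p = 7.05e-11) and Tmprss2 from 166 to 34.7 CPM (adjusted p = 5.21e-08), while St14, or matriptase, was at 173 and 238 CPM (adjusted p = 0.077). Of 9 caspases, 3 were higher and 4 lower in each genotype, beside the same shares of all genes, with medians of 0.13 and -0.69. Casp8, the initiator of death receptor signals, rose from 34.3 to 75.1 CPM (adjusted p = 2.88e-06), and Casp9 fell from 58.3 to 17.5 CPM (adjusted p = 1.80e-07), Casp6 from 56.7 to 24.7 CPM (adjusted p = 2.64e-05) and Casp2 from 41.3 to 20 CPM (adjusted p = 2.44e-05), all in Krt8+/+ cells by edgeR.

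Among 15 serpins of other clades, most of them secreted, 11 were tested, and 5 were higher and 3 lower in each genotype, with medians of 1.61 and 0.68, beside 28.6% of all genes higher in each genotype and 30.2% and 29.9% lower. Of the 11 genes, 1 had 0 counts on day 0 in Krt8+/+ cells and passed the filter through other groups. Others counted as higher were near 0 on day 0, such as Serpina3g at 0.115 CPM in Krt8+/+ cells. The Krt8-/- median of 0.68 is the value of Serpina3g, which was at 0.278 CPM on day 0 there and was not called (edgeR adjusted p = 0.543). The count of higher genes and the medians are therefore only a description. Serpinh1, a collagen chaperone of the endoplasmic reticulum, rose from 166 to 716 CPM in Krt8+/+ cells (edgeR adjusted p = 1.07e-07). Serpine2, a thrombin inhibitor, fell from 138 to 74.2 CPM (adjusted p = 0.00132), and Serping1, the C1 inhibitor, from 151 to 16.2 CPM (adjusted p = 1.75e-04). In none of these protease and serpin lists did edgeR call a gene between genotypes over days 1 to 7.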

How the data were processed

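The authors deposited 1 table of estimated counts per gene and library, given as whole numbers and without normalization, for 55421 mouse genes and 5 reporters with 0 counts. The submitters' processing notes name cutadapt 2.3, STAR 2.7.8a, RSEM 1.3.3 and the build GRCm38. Expected counts of this kind share reads between paralogs by estimate. The annotation release is not given in the sources used here, and symbols were taken from GENCODE M21, which matched 55154 identifiers.

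The 7 members, the gene lists and the tests were chosen with earlier results of these data known. The filter was filterByExpr with a min.count of 10 and a min.total.count of 15, and 18046 genes remained. After TMM scaling, they were fitted in 1 model of 8 groups with 16 residual degrees of freedom by edgeR 4.0.16 (glmQLFTest, R 4.3.3). P values were adjusted by Benjamini-Hochberg over all genes tested, with a threshold of 0.05. The difference over culture weighted day 1 by 0.167, day 3 by 0.5 and day 7 by 0.333 (trapezoid rule). The procedure was tested on simulated counts. Correlations were taken on log2 CPM with a prior count of 2. Coding sequences were aligned with Biopython 1.88.

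Named were all members, other clade B serpins with a group mean of at least 1 CPM, the 4 most abundant genes of each list, and the 5 genes most like Serpinb9b. A gene that this rule names is not reported here. Libraries were paired by the date in their labels, which both genotypes and all days share and which was read as the date of isolation. The labels do not say what the date stands for, and the cells of the genotypes come from different mice. The correlation of paired deviations from group means ranged from -0.0345 to 0.548. No library repeated another of its group, since the 24 pairs had a chi-square of 10.2 to 123 per gene. Alternatives were DESeq2 1.42.0, its size factors, no filter, a replicate block, leaving out each isolation, only the libraries compared, equal weights of days, and exon length by the longest transcript. P values rest on the spread of libraries within groups, pooled over the 8 groups of the fit, which has no isolation term unless the block is named. They do not measure how a single change varied between its 3 isolations. Counting intervals cover counting error only, at a confidence level of 95%.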

Additional observations from a re-analysis of the deposited data

How the results depend on the processing

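With a replicate block for the isolation, 3 of 6 members were called from day 1 to day 3 and 1 of 6 from day 3 to day 7 in Krt8+/+ cells, and granule proteases on day 7 in Krt8+/+ cells went from 1 to 2. The block changed no other count by more than 1.5 times, and the paired genotype difference of Serpinb9b over days 1 to 7 was 0.15 (SE 0.22). No filter gave 3 of 6 from day 1 to day 3, and only the libraries compared gave 1 of 6 from day 3 to day 7, in Krt8+/+ cells. DESeq2 called 2 granule proteases on day 7 in each genotype, a count over 3 genes that passed the filter through culture libraries and that supports nothing. Leaving out 1 isolation gave 0 to 1 members from day 3 to day 7 in Krt8+/+ cells, 1 to 2 from day 1 to day 3 and 0 to 1 from day 3 to day 7 in Krt8-/- cells, 1 to 2 granule proteases and 5 to 9 cathepsins on day 7 in Krt8+/+ cells. It turned the sign of small, uncalled changes. These ranged from day 1 to day 3 from -0.66 to 0.13 (Serpinb1a, Krt8+/+), -0.71 to 0.06 with 0.05 between (Serpinb1a, Krt8-/-) and -0.08 to 0.13 (Serpinb8, Krt8-/-). From day 3 to day 7 they ranged from -0.04 to 0.52 (Serpinb6b, Krt8+/+), -0.24 to 0.79 (Serpinb5, Krt8+/+), -0.33 to 0.13 (Serpinb6b, Krt8-/-) and -0.38 to 0.45 (Serpinb5, Krt8-/-). Between genotypes over days 1 to 7 they ranged from -0.02 to 0.21 (Serpinb9b), -0.02 to 0.20 (Serpinb9), -0.04 to 0.20 (Serpinb6b), -0.59 to 0.30 (Serpinb1a) and -0.02 to 0.16 (Serpinb8). The cause was not tested. The change of Serpinb9b from day 0 to day 7 was 12.89 to 15.73 on the log2 scale in Krt8+/+ cells when 1 isolation was left out, as it rests on 1 count on day 0. The genotype counts stayed at 0 of 7 in every alternative run. DESeq2's size factors moved the median of all genes by at most 0.05 on the log2 scale. With 3 isolations per group, small differences between genotypes were not detectable, and members with few counts on day 0 have no precise change against it.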
